A study of Mus musculus with 4 samples.

Results

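The B-cell receptor genes examined here are 9 genes chosen by name, namely Cd79a, Cd79b, Cr2, Cd81, Ms4a1, Cd22, Cd72, Blnk and Btk, and each of them matched a single row among the 54752 genes counted in each library. All 9 had enough counts to be tested. The question was how the transcripts of this B-cell machinery differed between T-cell cultures with and without MEK1 and MEK2. Naïve CD4+ T cells from the spleens of WT mice and of Mek1/2-tKO mice, which are Cd4-Cre+ and homozygous for floxed Map2k1 and floxed Map2k2 (both floxed lines on a C57BL/6 background), were cultured for 3 days under Tfh-polarizing conditions, and RNA was taken from re-sorted viable cells in 2 libraries per genotype. Both genotypes received plate-bound anti-CD3, anti-CD28, IL-6 and neutralizing antibodies to TGF-β, IL-4, IFN-γ and IL-2. The Cre transgene uses Cd4 regulatory sequence, which is active in the T lineage. The age of these mice, and whether a library came from 1 animal or from a pool, were not given in the sources used here, and nothing states that the 2 libraries of a genotype came from separate cultures, so the p-values measure only the spread between these samples.

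A B cell senses antigen through surface immunoglobulin, which has almost no cytoplasmic tail of its own and signals through the CD79A/CD79B heterodimer. Phosphorylated tyrosines in the tails of CD79A and CD79B recruit the kinase SYK, which then phosphorylates the adaptor BLNK, and BLNK brings BTK to phospholipase C-γ2. CR2 (CD21) and CD81 belong to the co-receptor that lowers the threshold for complement-coated antigen, whereas CD22 and CD72 carry inhibitory motifs that recruit the phosphatase SHP-1. CD20, encoded by Ms4a1, is a B-cell surface protein associated with the receptor. T cells use a parallel set of proteins, in which CD3, ZAP70 and SLP-76 (Lcp2) stand in for CD79, SYK and BLNK.

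Transcripts of the B-cell receptor machinery were higher in the Mek1/2-tKO libraries, and 8 of the 9 genes passed an adjusted p of 0.05 and a fold change of at least 1.5 (edgeR's quasi-likelihood test, Benjamini-Hochberg adjusted over 14330 genes). None was lower past these thresholds. Across all genes tested, 19.3% were called higher and 16.4% lower, 35.8% in all. The median log2 fold change of the 9 genes was 2.12, against 0.02 over all genes tested. The changes were not of 1 size. They ran from 0.53 for Cd81 to 3.73 for Cd79b, with an SD over the 9 genes of 1.00, while the median standard error of a gene was 0.10. The reads of the 9 genes together made up 0.0467 to 0.0482% of a WT library and 0.284 to 0.288% of a Mek1/2-tKO library. In bulk RNA, a larger share of cells of a type and more RNA per cell cannot be told apart.

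**Figure D1:**
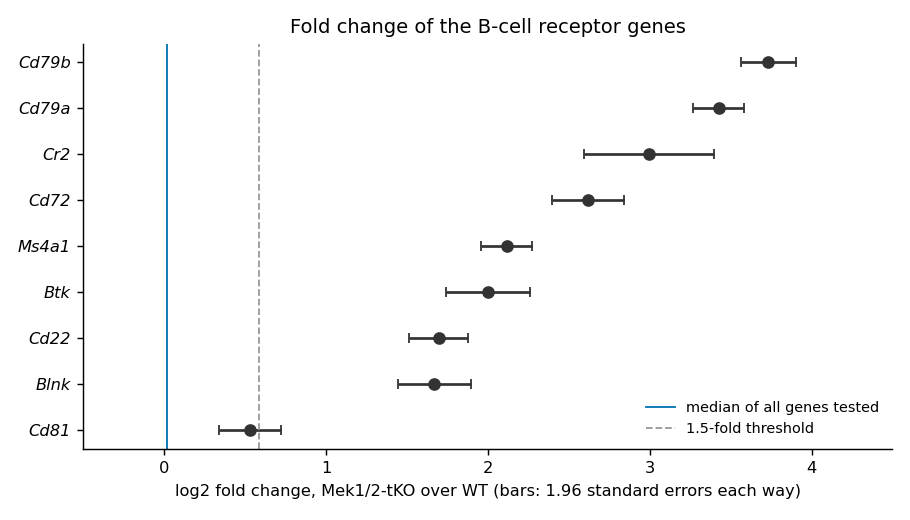
Log2 fold change (Mek1/2-tKO over WT, horizontal axis) of the 9 B-cell receptor genes, with approximate 95% intervals from edgeR's fit, the median of all genes tested as a solid line and the 1.5-fold threshold as a dashed line. Cd79b (3.73) and Cd79a (3.43) stand highest, and Cd81 (0.53) alone lies under the threshold.

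The libraries and the label were checked first. The counts of a library summed to between 16330802 and 18931090. A count of 0 in the shallowest library allows up to 0.184 CPM, which covers counting error only, and no B-cell receptor gene was near this limit, since the lowest count of any of the 9 genes in any library was 47. Map2k1 fell by 0.86 on the log2 scale (standard error, SE, 0.08), and Map2k2 had a log2 fold change of 0.15 (adjusted p = 0.126, edgeR's quasi-likelihood test); a count over the whole gene does not separate transcripts that lack the floxed exons. Of 10 T-cell markers, all were detected. Their summed level was 2561 to 2566 CPM in WT and 2219 to 2394 CPM in Mek1/2-tKO. Past both thresholds, 1 gene was higher (Thy1, 0.83 on the log2 scale) and 5 were lower, among them the co-stimulatory receptor Cd28 (-1.99). Over all genes tested, 19.3% were called higher and 16.4% lower. Cd4, the marker that defines the labelled cell type, fell from 293 ± 5.35 to 22.0 ± 4.48 CPM (SD, n = 2 each).

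Sequence is shown for the start sites of 4 of these genes, because 8 of the 9 transcripts rose together and motifs of B-lineage transcription factors can be looked for in their promoters. RefSeq windows of 250 bases before to 50 after the start site (GRCm38.p6) were matched by symbol for 7 of the 9 genes, all but Cd79b and Ms4a1. On both strands, 5 motifs were searched: the octamer bound by OCT factors (ATGCAAAT), the PU box (GAGGAA), the EBF1 site (TCCC and GGGA with any 2 bases between them), the E2A-type E-box (CAGGTG) and an NF-κB site (GGGAC followed directly by TTTCC). The windows of Cd79a (chr7:24897247-24897546, plus strand), Cd22 (chr7:30878979-30879278, minus strand) and Blnk (chr19:40994172-40994471, minus strand) held matches to 2 motifs each, and that of Cd81 (chr7:143052500-143052799, plus strand) held none. These windows were picked for display by their matches, and a link to fold change was not tested. They are written in the direction of transcription, with the matched bases in capitals:
Cd79a: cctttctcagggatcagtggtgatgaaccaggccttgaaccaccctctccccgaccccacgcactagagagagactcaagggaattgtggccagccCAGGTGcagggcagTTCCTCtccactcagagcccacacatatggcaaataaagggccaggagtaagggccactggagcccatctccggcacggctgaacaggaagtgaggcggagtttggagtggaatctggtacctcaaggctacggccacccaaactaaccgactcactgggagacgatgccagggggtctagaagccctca
Cd22: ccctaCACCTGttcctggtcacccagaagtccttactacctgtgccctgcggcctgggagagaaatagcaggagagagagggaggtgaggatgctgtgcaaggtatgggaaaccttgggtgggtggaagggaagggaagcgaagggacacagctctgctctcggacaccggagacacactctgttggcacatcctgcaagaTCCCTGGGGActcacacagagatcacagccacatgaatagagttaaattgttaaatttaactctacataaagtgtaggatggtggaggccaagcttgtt
Blnk: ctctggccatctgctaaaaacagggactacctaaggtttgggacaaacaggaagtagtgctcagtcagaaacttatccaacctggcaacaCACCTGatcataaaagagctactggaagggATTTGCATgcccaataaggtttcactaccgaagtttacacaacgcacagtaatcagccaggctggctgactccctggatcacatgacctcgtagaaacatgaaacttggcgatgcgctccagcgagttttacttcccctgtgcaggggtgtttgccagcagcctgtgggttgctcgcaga
Cd81: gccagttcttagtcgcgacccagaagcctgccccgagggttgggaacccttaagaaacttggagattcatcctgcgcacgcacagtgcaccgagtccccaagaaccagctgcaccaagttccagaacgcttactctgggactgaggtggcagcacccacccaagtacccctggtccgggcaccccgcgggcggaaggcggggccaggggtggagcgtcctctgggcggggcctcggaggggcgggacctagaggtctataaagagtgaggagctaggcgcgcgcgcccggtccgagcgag

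In the Cd79a window the E-box lay at -154 and the PU box, on the opposite strand, at -140 from the start site. The Cd22 window held an EBF1 site at -49 and an E-box on the opposite strand at -245, and the Blnk window an octamer at -130 and an E-box at -160, both on the opposite strand. Over the 7 windows, the E-box was found in 4 (Cd79a, Cr2, Cd22 and Blnk), the PU box in 3 (Cd79a, Cd72 and Btk), and the octamer and the EBF1 site in 1 each, while the NF-κB site was found in 0. Only these exact letters were searched, so a window without a match can still hold a variant of a site, for EBF1 as for the others. Of 32851 promoter windows of the same length, 20.2% held the E-box, 28.3% the PU box, 1.74% the octamer, 0.904% the EBF1 site and 0.155% the NF-κB site. The E-box and the PU box are thus common in windows of this length. The start site used by RefSeq lay 1314 bases downstream of the 5′ end of the counted gene for Cd22, 430 for Btk, 314 for Blnk and 116 for Cd79a, so that the windows of Cd22, Btk and Blnk do not reach the 5′ end of the counted gene. A match is a description of the letters and not a shown binding site.

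The signalling subunits of the receptor showed the largest log2 fold changes of the 9 genes. Cd79a (ENSMUSG00000003379.7, GRCm38 chromosome 7, 24897381 to 24902197, plus strand, 5 exon blocks) encodes Igα, the first of the signalling pair. The WT libraries held 56.8 and 59.0 CPM of it and the Mek1/2-tKO libraries 630 and 614 CPM. The groups lay far apart, with the lowest Mek1/2-tKO library over 10 times the highest WT library. The means were 57.9 ± 1.53 and 622 ± 11.1 CPM (SD, n = 2 each), and the log2 fold change was 3.43 (SE 0.08, adjusted p = 1.50e-12, edgeR's quasi-likelihood test). Cd79b (ENSMUSG00000040592.11, chromosome 11, 106311341 to 106314762, minus strand, 6 exon blocks) encodes Igβ, its partner. It had 93.4 and 89.7 CPM in WT against 1274 and 1158 CPM in Mek1/2-tKO, again without overlap, and its log2 fold change was 3.73 (SE 0.09, adjusted p = 1.50e-12, edgeR's quasi-likelihood test). Ordered by log2 fold change among the 14330 genes tested, Cd79b stood at position 215 and Cd79a at position 287.

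**Figure D2:**
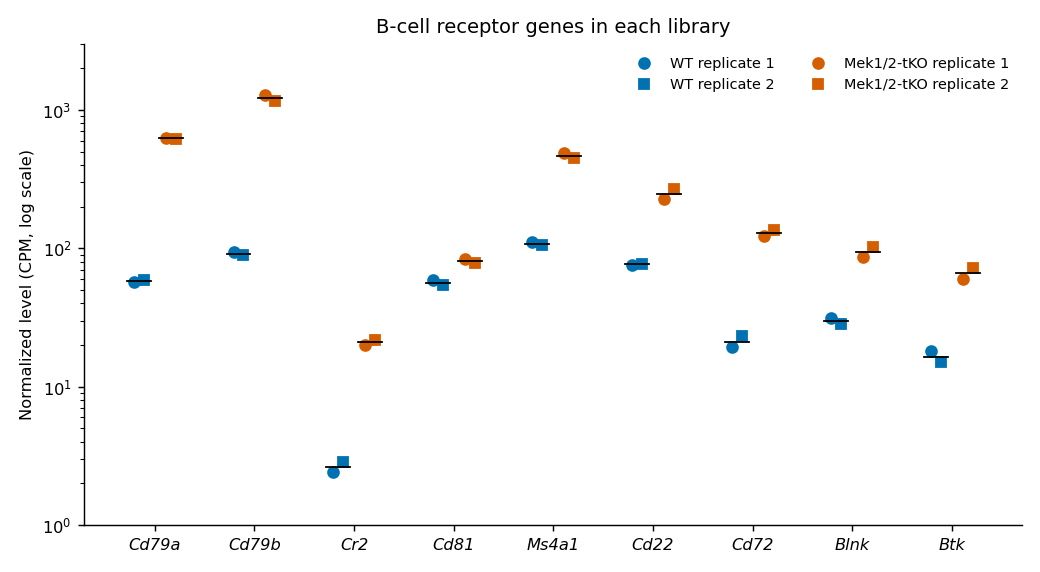
Level of the 9 B-cell receptor genes in each library (vertical axis, normalized CPM on a log scale), with WT libraries in blue, Mek1/2-tKO libraries in orange and a black line at the mean of each genotype. Both Mek1/2-tKO libraries lie above both WT libraries for all 9 genes, and on this scale the gap is narrowest for Cd81 (54.4 to 58.6 against 78.7 to 84.2 CPM).

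The co-receptor genes Cr2 and Cd81 differed from each other. Cr2 (ENSMUSG00000026616.15, chromosome 1, 195136811 to 195176716, minus strand, 26 exon blocks) encodes complement receptors, which in the mouse include both CD21 and CD35 as splice forms, and the counts do not separate them. It had 47 and 55 counts in WT and 312 and 411 counts in Mek1/2-tKO, or 2.41 and 2.85 against 20.2 and 21.9 CPM. It was the least abundant of the 9 genes in both genotypes, yet its log2 fold change was 3.00 (SE 0.20, adjusted p = 4.91e-08, edgeR's quasi-likelihood test), the third largest. Cd81 (ENSMUSG00000037706.17, chromosome 7, 143052739 to 143067934, plus strand, 9 exon blocks) encodes a tetraspanin that many cell types carry, T cells among them. Its level was 58.6 and 54.4 CPM in WT against 84.2 and 78.7 CPM in Mek1/2-tKO. The groups did not overlap, but the gap was small. The log2 fold change of 0.53 (SE 0.10, adjusted p = 4.41e-04, edgeR's quasi-likelihood test) passed the p threshold and not the fold change threshold, at a fold of 1.44 with an approximate 95% interval of 1.26 to 1.65, which includes 1.5.

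Ms4a1 (ENSMUSG00000024673.9, chromosome 19, 11249675 to 11266241, minus strand, 6 exon blocks), which encodes CD20, was intermediate. It had 110 and 106 CPM in WT against 488 and 449 CPM in Mek1/2-tKO, with no overlap, and a change of 2.12 on the log2 scale (SE 0.08, adjusted p = 1.30e-10, edgeR's quasi-likelihood test). It was the most abundant of the 9 genes by CPM in WT, ahead of Cd79b, although not per length of transcript.

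Both inhibitory receptors were higher. Cd22 (ENSMUSG00000030577.14, chromosome 7, 30865402 to 30880342, minus strand, 16 exon blocks) encodes a lectin of the Siglec family that binds sialic acid. Its level was 76.3 and 77.0 CPM in WT against 227 and 269 CPM in Mek1/2-tKO, so that the WT libraries were nearly equal and the Mek1/2-tKO libraries differed more from each other. The log2 fold change was 1.70 (SE 0.09, adjusted p = 5.80e-09, edgeR's quasi-likelihood test). Cd72 (ENSMUSG00000028459.11, chromosome 4, 43446462 to 43454628, minus strand, 7 exon blocks) encodes a C-type lectin-like receptor for CD100. It rose from 19.2 and 23.1 CPM to 124 and 136 CPM, a change of 2.62 on the log2 scale (SE 0.11, adjusted p = 6.02e-10, edgeR's quasi-likelihood test). Of its exon bases, 41.6% are shared with Tesk1 on the other strand, and whether the counting used the strand is not given in the sources used here. Tesk1 itself had 15.2 CPM in WT against 23.0 CPM in Mek1/2-tKO (log2 fold change 0.60, SE 0.16), and it no longer passed both thresholds with library size scaling (0.52) or without WT replicate 1 (0.48) or Mek1/2-tKO replicate 2 (0.47). Of the exon bases of Cd22 9.50%, and of those of Cd81 3.61%, are shared with other genes in the same way, and the other 6 genes share none.

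The cytoplasmic adaptor and the kinase of the pathway were also higher. Blnk (ENSMUSG00000061132.13, chromosome 19, 40928927 to 40994535, minus strand, 17 exon blocks) encodes the adaptor that links SYK to phospholipase C-γ2. It had 31.4 and 28.2 CPM in WT against 86.4 and 103 CPM in Mek1/2-tKO, with a change of 1.67 on the log2 scale (SE 0.12, adjusted p = 5.58e-08, edgeR's quasi-likelihood test). Btk (ENSMUSG00000031264.13, chromosome X, 134542336 to 134583570, minus strand, 22 exon blocks) encodes the TEC-family kinase whose loss blocks B-cell maturation. It had 18.0 and 15.0 CPM in WT against 59.9 and 71.8 CPM in Mek1/2-tKO, with a change of 2.00 on the log2 scale (SE 0.13, adjusted p = 4.00e-08, edgeR's quasi-likelihood test). For both genes the groups did not overlap, and replicate 2 was the higher of the Mek1/2-tKO libraries. Counted over all 9 genes, both Mek1/2-tKO libraries were above both WT libraries in 9, as they were in 39.5% of all genes tested, while both were below in 38.8%.

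The order of the 9 genes per kilobase of exon changed little between the genotypes, apart from Cd81. In WT, Cd79b was highest with 64.0 ± 1.79 CPM per kb, followed by Cd79a with 39.7 ± 1.05, Cd81 with 19.6 ± 1.03, Ms4a1 with 17.5 ± 0.459 and Cd22 with 15.2 ± 0.0923 CPM per kb (SD, n = 2 each). Cd72, Btk and Blnk lay between 4.97 and 6.18 CPM per kb, in this order, with Btk overlapping both Cd72 and Blnk in the range of the replicates, and Cr2 was lowest with 0.325 ± 0.0384 CPM per kb. In Mek1/2-tKO, Cd79b reached 850 ± 57.2 and Cd79a 427 ± 7.64 CPM per kb, and Ms4a1, Cd22 and Cd72 followed with 75.7, 49.2 and 38.0 CPM per kb. Cd81 was now sixth with 28.3 ± 1.37 CPM per kb, and all neighbours in this order were separate in both replicates. Among all genes tested, Cd79b moved from percentile 92.1 of the level per kb in WT to percentile 99.1 in Mek1/2-tKO, and Cd72 from 53.0 to 85.4.

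Levels were also read relative to Ighm, the heavy-chain gene of IgM, in the same library, a ratio that does not depend on how the libraries were scaled. Ighm itself rose by 2.17 on the log2 scale. Relative to it, Cd79a stood at -3.24 and -3.13 (log2 of the ratio per kb) in WT and at -1.91 and -1.96 in Mek1/2-tKO. Cd79b stood at -2.50 in both WT libraries and at -0.87 and -1.02 in Mek1/2-tKO. The receptor chains that signal were thus closer to the heavy chain in Mek1/2-tKO by 1.25 and 1.56 on the log2 scale. Cr2 and Cd72 also gained on Ighm, by 0.83 and 0.45, without overlap between genotypes. This was so for 4 of the 9 genes and for 3.01% of the 14037 genes with a count in every library. Ms4a1 changed by -0.06 and Btk by -0.17 relative to Ighm, and their genotypes overlapped. Cd22, Blnk and Cd81 were lower relative to Ighm in both Mek1/2-tKO libraries, by -0.48, -0.51 and -1.64, as were 92.6% of those genes. Cd79b also gained on Cd79a, from 0.74 and 0.63 to 1.04 and 0.94 on the same scale, which 0.705% of the genes did. The other 7 genes were lower relative to Cd79a in both Mek1/2-tKO libraries, by -0.42 for Cr2 to -2.90 for Cd81, as were 97.3% of the genes. With 2 libraries against 2, an exact two-sided permutation test cannot give a p under 0.333, so these ratios are given without a test.

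**Figure D3:**
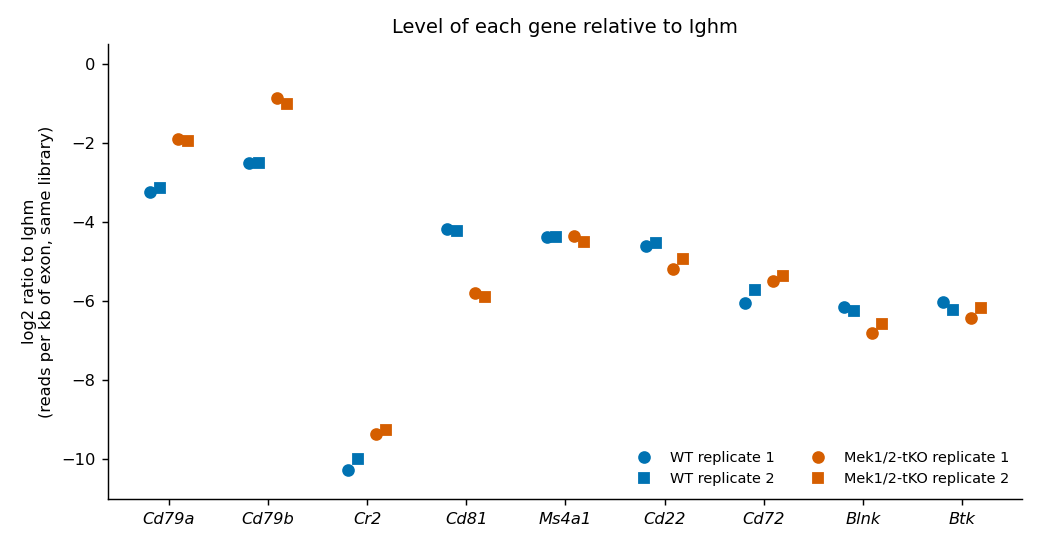
Level of the 9 genes relative to Ighm in the same library (vertical axis, log2 ratio of reads per kb of exon), with WT libraries in blue and Mek1/2-tKO libraries in orange. Cd79a, Cd79b, Cr2 and Cd72 are higher relative to Ighm in both Mek1/2-tKO libraries, Ms4a1 and Btk overlap, and Cd81, Cd22 and Blnk are lower.

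Most other B-cell markers were also higher in the Mek1/2-tKO libraries, by widely differing amounts. Of 12 B-cell markers outside the 9 genes, 10 were higher and 1 was lower past both thresholds, beside 19.3% higher and 16.4% lower over all genes tested. Their median log2 fold change was 2.13, and their summed level was 1565 to 1603 CPM in WT and 6997 to 7039 CPM in Mek1/2-tKO. None of the 12 was at 0 in WT. Fcrla, an intracellular Fc receptor-like protein of B cells, had the largest log2 fold change of 6.17 (SE 0.13), followed by Fcmr, the receptor for IgM, with 4.70 (SE 0.12) and Ighd, the heavy chain of IgD, with 3.68 (SE 0.09). Pax5, the transcription factor that holds B-cell identity and controls Cd79a, had a change of 1.02 on the log2 scale (SE 0.12), smaller than those of the 8 called receptor genes. Fcer2a, the low-affinity IgE receptor CD23, was lower with -0.59 (SE 0.08), close to the threshold, and it fell short of it in 3 of the 7 alternatives that kept all libraries and without WT replicate 1 or Mek1/2-tKO replicate 1 (-0.56 and -0.57). Pou2af1, a coactivator of octamer factors in B cells, had a log2 fold change of 0.42 and did not pass.

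Markers of other cell types were read beside these, and their part in the B-cell receptor genes was not tested. NK-cell markers were higher in 6 of 6 genes, with summed levels of 60.9 to 63.6 CPM in WT and 369 to 412 CPM in Mek1/2-tKO, and log2 fold changes of 3.73 for Ncr1, 3.71 for Klre1 and 3.23 for Klrk1. Dendritic-cell markers, of which 4 of 8 were tested and all 4 were higher, summed to 7.99 to 9.29 and to 29.2 to 31.8 CPM, and Clec9a, Siglech and Cd209a had 0 counts in WT. The called genes included Ccr9 (4.44, with 2 counts in each WT library), Itgax (2.65) and Flt3 (2.52) on the log2 scale. Myeloid markers, of which 6 of 10 were tested and all 6 were higher, summed to 4.36 to 4.77 CPM and to 21.2 to 27.0 CPM, with Adgre1 and S100a8 at 0 counts in WT, Lyz2 at a log2 fold change of 3.97 and Cd14 at 1.86, whose call was lost without WT replicate 2 (1.65) or Mek1/2-tKO replicate 1 (1.36). Adgre1, S100a8, S100a9, Lyz2, Ccr9 and Itgax passed the count filter only through the Mek1/2-tKO libraries. A gene admitted in this way can only come out higher. The calls of these genes therefore add nothing to the counts of higher markers. Over all genes tested, 19.3% were called higher and 16.4% lower. Plasma-cell markers summed to 266 to 278 CPM in WT and 604 to 691 CPM in Mek1/2-tKO. Of the 6 genes 5 were tested, and Jchain (4.54) and Mzb1 (2.35) were higher on the log2 scale while Sdc1 (-0.13), Prdm1 (0.66) and Xbp1 (0.37) were not called. Tnfrsf17, a receptor of plasma cells, had 0 counts in 3 libraries and 2 counts in the other. Follicular dendritic and stromal markers, which include cells that also carry CR2, were not tested for any of 6 genes and summed to at most 1.61 CPM in any library.

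Of 18 other kinases and adaptors of B-cell receptor signalling, 10 were higher and 2 lower, with a median log2 fold change of 0.88, beside 19.3% higher, 16.4% lower and a median of 0.02 over all genes tested. Blk, a Src-family kinase of B cells, rose from 16.4 to 111 CPM (2.76 on the log2 scale, SE 0.12), and the adaptor Lat2 (2.55, SE 0.13) was higher too, although 36.3% of the exon bases of Lat2 are shared with a gene on the other strand. Syk, which binds the phosphorylated CD79 tails, had a change of 1.43 on the log2 scale (SE 0.09) and Plcg2, which BTK activates, of 1.06 (SE 0.11). The lower genes were Vav3 (-0.82, SE 0.17), an exchange factor for small GTPases, and Fyn (-0.71, SE 0.08), a Src-family kinase that T cells use. Of 14 genes further downstream, 3 were higher and 4 lower, with a median of -0.27, and against the same shares of all genes these counts say little about the list. Rasgrp3 (1.15), an exchange factor for Ras, and the GTPase Rac2 (0.70) were among the higher genes. Nfatc2 (-1.72), Sos1 (-1.08) and Nfkb1 (-0.97) were the most reduced.

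Of 15 inhibitors of antigen-receptor signalling, 6 were higher and 3 lower, with a median log2 fold change of 0.16, beside the same shares of all genes. Dok3, an adaptor that restrains B-cell receptor signalling, rose from 4.77 to 124 CPM (4.70 on the log2 scale, SE 0.17). Fcgr2b, the inhibitory IgG receptor of B cells, rose by 3.28 (SE 0.13) on the log2 scale. Pirb, an inhibitory receptor of B and myeloid cells, had a change of 3.52 on the log2 scale (SE 0.38), but only 34 and 9 counts in WT. Its value moved to 4.75 when WT replicate 1 was left out and to 2.87 when WT replicate 2 was. Pirb passed the count filter only through the Mek1/2-tKO libraries, so that its call adds nothing to the count of higher inhibitors. Cd5 (-1.55, SE 0.08), a surface receptor of T cells and of a B-cell subset, and the ubiquitin ligases Cblb (-1.48) and Cbl (-0.95) were lower. Ptpn6, which encodes SHP-1, the phosphatase bound by CD22 and CD72, had a change of 0.28 on the log2 scale (SE 0.07) and was not called.

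The T-cell counterparts of the B-cell receptor machinery were lower or little changed. Of 10 genes, 7 were lower and 0 higher past both thresholds, with a median log2 fold change of -0.82, beside 16.4% of all genes called lower. Among the CD3 chains, which serve the T-cell receptor as CD79 serves the B-cell receptor, Cd3e (-1.06, SE 0.10) and Cd247 (-0.79, SE 0.08) fell, and Cd3d (0.20) and Cd3g (0.24) were not called. For Cd247, 56.4% of the exon bases are shared with genes on the other strand. The kinase Zap70 (-1.11), the adaptor Lcp2 (-0.78), the phospholipase Plcg1 (-1.83) and the co-receptor Cd4 (-3.73) fell as well, whereas Lat (-0.55) was not called, although it passed both thresholds when scaled by library size alone (-0.64) and without Mek1/2-tKO replicate 1 (-0.63). Set against its counterpart per kb of exon, Syk had 0.0668 and 0.0588 times the level of Zap70 in the WT libraries and 0.364 and 0.368 times in the Mek1/2-tKO libraries. Blnk had 0.0783 and 0.0676 times the level of Lcp2 in WT and 0.373 and 0.423 times in Mek1/2-tKO, and Plcg2 went from 0.877 and 0.949 to 6.18 and 7.28 times the level of Plcg1. The B-cell form of each of these pairs was nearer to or above the T-cell form in both Mek1/2-tKO libraries.

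**Figure D4:**
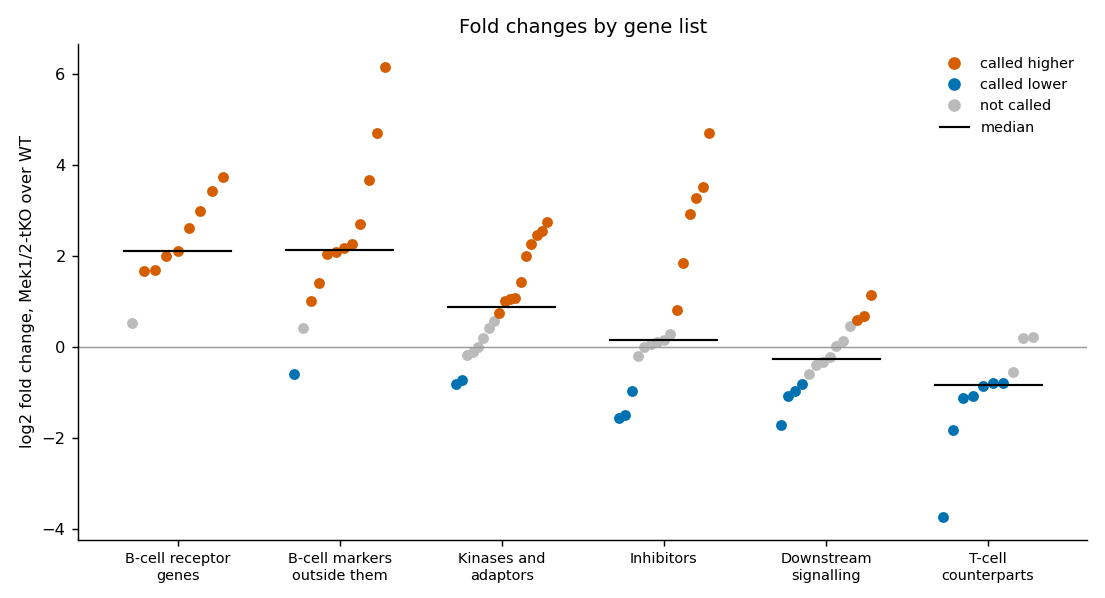
Log2 fold change (Mek1/2-tKO over WT, vertical axis) of the genes tested in 6 lists, each point 1 gene, orange where called higher, blue where called lower and grey where not called, with a black line at the median of the list. The medians of the B-cell receptor genes (2.12) and of the other B-cell markers (2.13) lie above those of the kinases and adaptors (0.88), the inhibitors (0.16), the downstream genes (-0.27) and the T-cell counterparts (-0.82).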

How the data were processed

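The authors prepared stranded mRNA libraries, sequenced read pairs, trimmed them with Trimmomatic 0.36, mapped them to GRCm38 and counted uniquely mapped reads per gene with featureCounts (Subread 1.5.1). The deposited values are raw counts per gene and library, without normalization. Neither the gene annotation used nor whether counting considered strand is given in the sources used here. Symbols were found for 54723 of the 54752 gene identifiers, and 98.4% of the identifiers have the same version in GENCODE M21, from which transcripts were read.

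A robust quasi-likelihood model was fitted to the counts of all genes that passed filterByExpr, with TMM scaling, in edgeR 4.0.16 (R 4.3.3). A gene was called where the fold change reached 1.5 and the adjusted p was under 0.05. CPM values use TMM-scaled library sizes. DESeq2 1.42.0 served as an alternative, as did edgeR's likelihood-ratio test, other scalings and filters, a fold change of 2, a replicate block and leaving out each library. Promoter sequences came from RefSeq (GRCm38.p6). Python 3.11.15, pandas 2.3.3 and matplotlib 3.10.9 were used.

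The 9 genes and the lists were chosen with earlier results of these data known. The text names all 9 genes, up to 3 called genes per list and direction if their average log2 CPM was 0 or more, all T-cell counterparts, Map2k1 and Map2k2, and the 5 genes with the profile most like Cd79a and Cd79b. Syk, Plcg2, Ptpn6, Pax5, Pou2af1, Ighm and genes named for low counts, shared exons or a missed call were added after their values were seen. Bank1, Cd5, Cd37, Lcp2, Cd3d, Cd3e, Cd3g and Cd4 stand in 2 lists each. Some genes that the rule names are not reported here, although the counts and medians of the lists include them.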

Additional observations from a re-analysis of the deposited data

How the results depend on the processing

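Each of the 9 genes kept its direction and its side of the thresholds under 7 alternatives that kept all libraries and without any single library, and 8 genes were called higher and 0 lower in each, also at a fold change of at least 2, which 12.0% of all genes tested passed as higher. With each library left out, the log2 fold change of Cd79a ranged from 3.40 to 3.45, that of Cd79b from 3.66 to 3.79 and that of Cr2 from 2.88 to 3.12. That of Cd81 stayed at or under 0.58 in all of them, with an adjusted p of at most 0.0108 (edgeR and DESeq2). The median of the 9 genes ranged from 2.03, with library size alone, to 2.17. Across genes, deviations from the group mean correlated at -0.0262 between equally numbered libraries. No shift shared by replicate number was thus seen, although this value cannot exclude that equally numbered libraries were prepared together. The fit with a replicate block called 8 of the 9 genes and 2652 of all genes tested higher. The lower B-cell marker, Fcer2a, was not called with DESeq2's size factors, with at least 10 counts in every library or with the replicate block, which leaves 0 lower markers, and the number ranged from 0 to 1 with each library left out. Exon length cancels when the ratios between genes are compared between genotypes, so the division by length cannot change that comparison. For Cr2, the counts of 47 and 55 in WT limit its precision, and its standard error of 0.20 is the largest of the 9 genes.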

Other observations

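Relatives of the B-cell receptor genes by family did not all move with them. Over all genes tested, 19.3% were called higher and 16.4% lower. Of 7 tetraspanins other than Cd81, 2 were higher and 0 lower, with a median log2 fold change of 0.36. Beside these shares, the tetraspanin count says little about that family. The higher tetraspanins were Cd63, a lysosomal tetraspanin with 5 and 6 counts in WT and 86 and 109 in Mek1/2-tKO (4.29, SE 0.44), and Cd37 of mature B cells (2.05, SE 0.08). Of 8 MS4A genes other than Ms4a1, 6 were tested and 5 were higher, with a median of 2.01, beside the same shares of all genes. Ms4a4c rose from 20.2 to 249 CPM (3.62 on the log2 scale, SE 0.13), while Ms4a6b, with 121 CPM in WT against 107 CPM in Mek1/2-tKO, was not called. Ms4a4a (2.72, 6 and 4 counts in WT) and Ms4a6d (2.06, 26 and 24 counts in WT) were higher at low levels. Among the TEC kinases other than Btk, Txk (2.18, SE 0.21) and Tec (1.53, SE 0.18) were higher, and Bmx had 0 counts in all libraries. Clnk, the other adaptor of the Blnk family beside Lcp2, went from 4 and 2 counts to 34 and 34 (3.63, SE 0.69). Of 3 relatives of Cr2, Cd55, which protects cells from complement, rose from 4.23 to 66.3 CPM (3.97 on the log2 scale, SE 0.15), Cr1l (0.57) was not called, and Cd46, with 10 and 6 counts in WT, was called (1.79) but lost the call with DESeq2 (adjusted p = 0.112) and without any 1 of the libraries. Cd63, Ms4a4a, Clnk and Cd46 passed the count filter only through the Mek1/2-tKO libraries, so that they could only come out higher.

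By the smallest root mean square difference of centred log2 CPM over the 4 libraries, the genes outside the lists whose profile was most like the mean of Cd79a and Cd79b were Fcrl1 (0.0259), Tcp11l2 (0.0539), Ypel3 (0.056), Gm45552 (0.0614) and Ly6d (0.0641). Fcrl1 is an Fc receptor-like protein of B cells, and it had 10.7 and 10.3 CPM in WT against 128 and 124 CPM in Mek1/2-tKO. Ly6d, a surface protein used as a mark of early B-lineage cells, had 32.9 and 29.7 CPM in WT against 389 and 344 CPM in Mek1/2-tKO. Ypel3 had 10.6 and 10.7 CPM in WT against 130 and 136 CPM in Mek1/2-tKO. Tcp11l2 (2.26 and 2.13 against 28.5 and 29.4 CPM) and Gm45552 (2.10 and 1.92 against 27.3 and 24.0 CPM) were lower in level. The profile was not particular to B-cell genes, since the NK-cell marker Klrk1 differed from it by 0.19.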
